A study of Mus musculus with 18 samples.

Results

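Oxidative phosphorylation subunits, here the nuclear-encoded transcripts of complexes I to V, were followed across 6 mouse pancreatic ductal adenocarcinoma (PDAC) lines in which glutathione S-transferase theta 1 (Gstt1) was silenced. Members were every row whose symbol begins with Ndufa, Ndufb, Ndufc, Ndufs or Ndufv (complex I), is Sdha, Sdhb, Sdhc or Sdhd (complex II), or begins with Uqcr (complex III), Cox4 to Cox8 (complex IV) or Atp5 (complex V). This gave 83 of 16383 rows: 42 for complex I, 4 for complex II, 8 for complex III, 13 for complex IV and 16 for complex V. A filter on low values, at least 1 CPM (reads scaled to a common library total) in at least 4 libraries, was passed by 81 of them. Ndufa4l2 and Atp5l did not pass it.

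The name rule also takes in 8 rows that are not structural subunits. Ndufaf1, Ndufaf2, Ndufaf3 and Ndufaf4 are complex I assembly factors, and Atp5sl is a relative of Atp5s that is known as an assembly factor. Atp5s is coupling factor B, Cox7a2l is a factor of respiratory supercomplexes, and Cox4nb is the gene beside Cox4i1 and codes for a subunit of the endoplasmic reticulum membrane complex. Ndufa4, now counted with complex IV, is kept under complex I here because of its name. The medians of the 73 tested structural subunits are given beside those of all 81 where they matter. The subunits encoded by mitochondrial DNA were not analysed here.

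In the inner mitochondrial membrane, complexes I and II pass electrons from NADH and succinate to coenzyme Q, complex III passes them to cytochrome c, and complex IV passes them to oxygen. Complexes I, III and IV pump protons, and complex V, the ATP synthase, uses the proton gradient to make ATP. Complex II is also an enzyme of the tricarboxylic acid cycle, and all of its subunits are encoded in the nucleus. The nuclear genes of these complexes are commonly expressed in concert, and their promoters are known for sites of NRF1, ETS factors such as GABPA, YY1 and estrogen-related receptors.

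The study used lines grown from spontaneous lung metastases (42-3 and 6-2) and liver metastases (42-2, G45-2, 6-3 and 13-2), carried in 2D culture. Each received a lentivirus with a non-targeting (NT) hairpin, Gstt1 shRNA 1 or Gstt1 shRNA 2, followed by 48 h of puromycin, and RNA was taken after the next split. The 18 libraries were 8 NT controls, 6 of shRNA 1 and 4 of shRNA 2, from 8 culture sets of a control with its own knockdowns (3 lung, 5 liver); lines 42-3 and 42-2 each have a first and a second set. All groups carry the KrasL/+ and p53F/+ (Tp53F/+) alleles with p48, a driver of recombination in the pancreatic lineage, written p48-Cre for the first 42-3 set and p48+ elsewhere. The SIRT6F/F allele is on the labels of every line other than 13-2, whose genotype is given as p48+/Tp53F/+KrasL/+. NT control libraries carry the same alleles and the same puromycin selection as the knockdown libraries of their line.

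Libraries held 8411436 to 25552912 reads. Gstt1 in the 10 knockdown libraries was at 0.613% to 75.4% of its own control, with the 2 highest values in G45-2 shRNA 1 (54.5%) and 6-3 shRNA 1 (75.4%). Line 42-2 had little Gstt1 to silence, with its controls at 2.67 CPM (first set) and 0.616 CPM (second set). The controls of the other lines were at 24.3 to 52.5 CPM. A control and its knockdown were also compared at 7 transcripts whose presence marks a line (4 of the Y chromosome, Xist, Cdkn2a and Cdkn2b). A gap of 10-fold or more, from 10 CPM or above, was found for at least 2 of the 7 in 5 of the 8 sets: 13-2, first 42-2, first 42-3, second 42-3 and 6-2, which include all 3 lung sets. With a limit of 1 CPM the second 42-2 set joined them, which left G45-2 and 6-3. G45-2 still had such a gap in 1 of the 7, the Y chromosome transcript Kdm5d, with each hairpin, and 6-3 had 0. Counts, medians and many of the estimates for knockdown and for each hairpin are therefore also given without these 5 sets; whether the control and the knockdown of such a set are the same line cannot be told apart from an effect of the hairpin. The summed pancreatic cancer epithelium markers (Epcam, Cdh1, Krt8, Krt18 and Krt19) ran from 380 to 14473 CPM in the controls and from 256 to 7640 CPM in the knockdowns, and summed fibroblast markers (7 of 7 genes in the table) from 5.79 to 2917 and from 4.08 to 6452 CPM. Macrophage, endothelial and hepatocyte sums did not exceed 16.6, 11.3 and 40.3 CPM in any library.

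In the NT controls, abundance was compared between genes only per length of RNA, as CPM per kilobase of the principal transcript. The median over members was 87.0 for complex I (42 rows), 129 for complex II (4), 157 for complex III (8), 157 for complex IV (13) and 161 for complex V (16). Atp5b, the catalytic beta subunit of ATP synthase, had the highest level at 762 ± 190.0 CPM per kilobase (SD, n = 8), followed by Cox4i1 at 661 ± 145 and Atp5g3, a gene for the c-ring subunit, at 574 ± 169. These 3 neighbours in the order differ by less than their SDs. Among genes that code for alternative forms of a subunit, Cox7a2 was at 165 ± 32.6 and Cox7a1, the heart and muscle form, at 3.90 ± 3.34 CPM per kilobase. Ndufa4 was at 409 ± 38.7 and Ndufa4l2, its hypoxia-responsive relative, at 0.0361 ± 0.0759. Atp5g3 stood far above Atp5g1, at 2.34 ± 0.740. Atp5g1, Ndufs5, Cox7c and Atp5l have near-identical copies elsewhere in the genome, so their low values are uncertain.

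Knockdown against NT control asked whether silencing Gstt1 changed these transcripts. No member of any complex passed the test (limma, adjusted p under 0.05), against 5 of 12931 genes tested (0.0387%). Point estimates nevertheless lay mostly on the lower side: 74 of 81 members were lower in the knockdowns, with a median difference of -0.34 on the log2(CPM + 1) scale, where the median over all genes was -0.03 and 6851 of 12931 (53.0%) were lower. At an unadjusted p under 0.05, 17 of 81 members (21.0%) were lower and 0 were higher, beside 10.1% of all genes that were lower by that rule. The structural subunits gave a median of -0.37, with 68 of 73 lower.

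By complex, 38 of 41 complex I members, 3 of 4 of complex II, 8 of 8 of complex III, 12 of 13 of complex IV and 13 of 15 of complex V had lower estimates. The medians were -0.38, -0.15, -0.40, -0.33 and -0.34 in that order. The 7 members with higher estimates were Sdha, Atp5b, Atp5a1, Ndufs1, Ndufab1, Ndufaf4 and Cox4nb, and their estimates did not exceed 0.21. Sdha, Atp5b and Ndufs1 code for large catalytic or electron-carrying subunits, and Atp5a1 for another large subunit of complex V. Ndufab1 is the mitochondrial acyl carrier protein, and the remaining pair, Ndufaf4 and Cox4nb, are not subunits.

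Without the 5 sets that differ in identity transcripts, 66 of 80 members tested were lower, the median was -0.17 and 4 were lower at an unadjusted p under 0.05. The complex medians were then -0.16, -0.13, -0.28, -0.24 and -0.13 for complexes I to V, each nearer to 0. The sets kept, G45-2, 6-3 and the second 42-2 set, are all of liver lines. Gstt1 itself was at -1.37 in this fit, against -3.27 with all sets. The fits thus differ also in site and in the extent of silencing, and these were not separated. In G45-2 and 6-3 alone, 66 of 79 were lower with a median of -0.21. A single set also moved the count at an unadjusted p under 0.05, which was 41 without the first 42-2 set (median -0.43) and 8 without 6-2 (median -0.25).

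**Figure D1:**
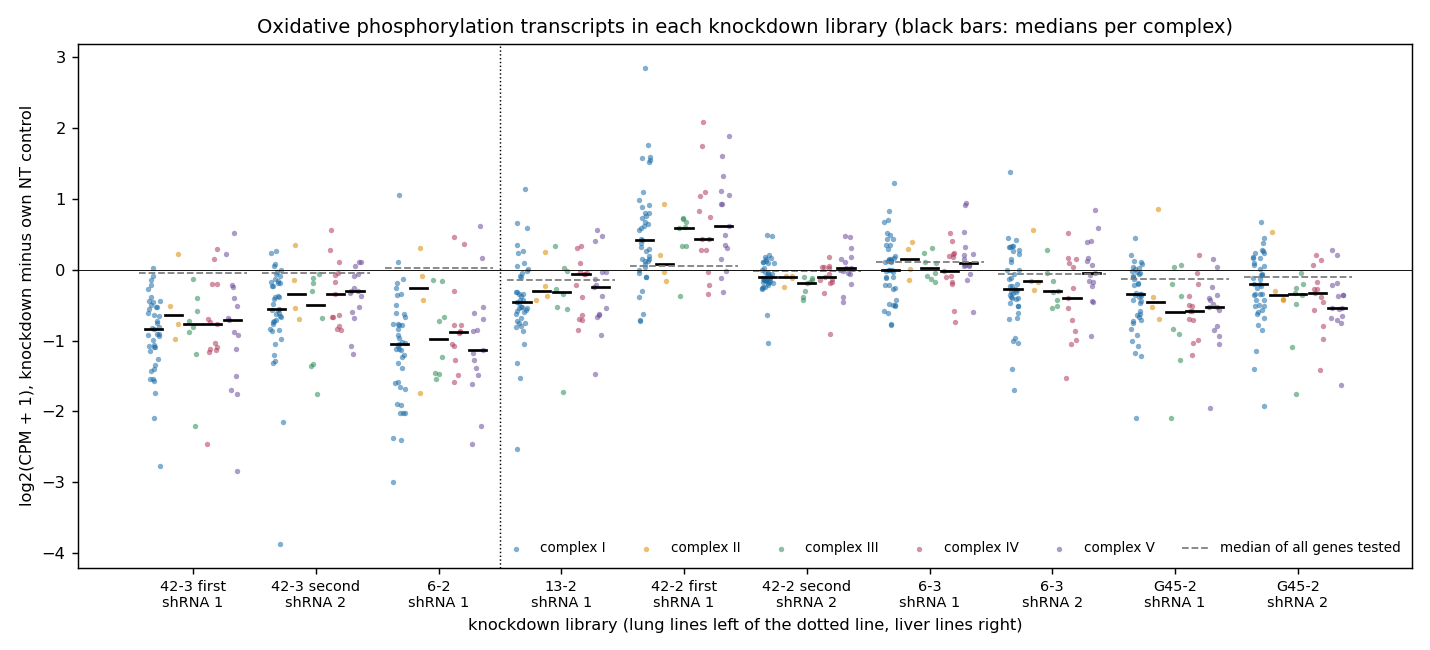
Each point is 1 of the 81 tested members, coloured by complex; the y axis is log2(CPM + 1) in a knockdown library minus its own NT control, the x axis lists the 10 knockdown libraries, black bars are medians per complex and the dashed line is the median of all genes tested. Complex medians lie below 0 in every lung-line library and above 0 for all 5 complexes in the first 42-2 set.

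The 10 knockdown libraries differed among themselves. Over all members, the median difference from the own control was -0.81 in first 42-3 shRNA 1, -0.38 in second 42-3 shRNA 2 and -1.02 in 6-2 shRNA 1, with 75, 69 and 74 of 81 members lower. Among liver-line libraries it was -0.37 in 13-2 shRNA 1 (63 lower) and -0.10 in second 42-2 shRNA 2 (56 lower). In G45-2 it was -0.43 with shRNA 1 (67 lower) and -0.34 with shRNA 2 (61 lower), and in 6-3 it was 0.07 (35 lower) and -0.22 (54 lower). The first 42-2 set had the opposite sign, with a median of 0.44 and 18 of 81 members lower. Its control had the lowest members of the 8 controls, at a median of -0.19 against the mean of the controls, and complexes III, IV and V were at 0.60, 0.43 and 0.61 in its knockdown. The medians of all genes in these 10 libraries lay between -0.15 and 0.11.

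In complex I, Ndufa6, an accessory subunit of the LYR-motif family, had the smallest p. It was at 69.1 to 219 CPM in the 8 controls (median 105) and at 32.9 to 72.4 CPM in the 10 knockdowns (median 58.7). The ranges met only through the second 42-2 control, at 69.1 CPM. With the hairpins of a set averaged, Ndufa6 was lower in 8 of 8 sets, by -1.02 (SE 0.25, limma adjusted p = 0.112), and by -0.59 (SE 0.34, limma adjusted p = 0.547) without the sets that differ in identity transcripts. DESeq2 on reads recovered from the CPM values gave an adjusted p of 0.00875 for it, and the fit without the replicate block 0.0405. Over all 21 alternatives the adjusted p ran from 0.00875 to 0.547.

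Ndufv3, an accessory subunit of the NADH-oxidising module, was at 68.9 to 126 CPM in controls (median 93.1) and 27.7 to 88.7 CPM in knockdowns (median 60.8). It too was lower in 8 of 8 sets, by -0.71 (SE 0.20, limma adjusted p = 0.127), and the estimate was -0.64 without the sets that differ in identity. Ndufa9, an accessory subunit at the junction of the matrix and membrane arms, was lower by -0.45, and Ndufa13, an accessory subunit also known as GRIM-19, by -0.62, with limma adjusted p values of 0.177 and 0.188. Without those sets Ndufa9 was at -0.06 and Ndufa13 at -0.23.

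Complex II had no shared direction. Sdhc, a membrane anchor that carries the quinone site, was at 194 to 332 CPM in controls (median 256) and 98.5 to 250.0 CPM in knockdowns (median 194). Its estimate was -0.50 (SE 0.19, limma adjusted p = 0.207), and -0.19 (SE 0.17, limma adjusted p = 0.711) without the sets that differ in identity. With hairpins averaged Sdhc was lower in 8 of 8 sets, although 6-3 shRNA 1 was at 243 CPM against 241 CPM in its control. Sdhd, the other anchor, had an estimate of -0.28. Sdhb, the iron-sulfur subunit, was near 0 at -0.02, a sign that turned when single sets were left out, and -0.08 without those sets. Sdha, the flavoprotein that oxidises succinate, was at 277 to 397 CPM in controls (median 322) and 270.2 to 572 CPM in knockdowns (median 362), with an estimate of 0.12 (SE 0.16), and 0.27 (SE 0.21) without those sets. Sdha was higher in 5 of 8 sets, and it was the only tested member higher in all 3 lung sets.

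All 8 complex III members had lower estimates. Uqcrh, the hinge protein, was at 63.4 to 109 CPM in controls (median 98.6) and 29.2 to 98.2 CPM in knockdowns (median 49.3). Its estimate was -0.80 (SE 0.24, limma adjusted p = 0.149), with 7 of 8 sets lower and the first 42-2 set higher at 0.33. Without the sets that differ in identity it was -0.65 (limma adjusted p = 0.441). The small subunits Uqcrq and Uqcr10 had estimates of -0.71 and -0.59, and of -0.34 and -0.37 without those sets. The large core protein Uqcrc1 was at -0.19 and Uqcrc2 at -0.18, the latter at -0.08 without those sets.

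Of complex IV, Cox8a, a small membrane subunit, was at 135 to 224 CPM in controls (median 177) and 73.9 to 172 CPM in knockdowns (median 112). With hairpins averaged it was lower in 8 of 8 sets, although 6-3 shRNA 1 was at 167 CPM against 148 CPM in its control. The estimate was -0.59 (SE 0.19, limma adjusted p = 0.166), and -0.30 without the sets that differ in identity. Cox7b and Cox4i1, the latter a subunit through which ATP regulates the enzyme, had estimates of -0.50 and -0.36. Cox7a1 was at 0.385 to 4.29 CPM in controls, and its estimate of -0.59 rests on these low levels.

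In complex V, the smallest p belonged to Atp5s, which is not a structural subunit. It was at 10.3 to 27.9 CPM in controls (median 20.2) and 5.84 to 29.2 CPM in knockdowns (median 12.2). With hairpins averaged it was lower in 8 of 8 sets, although 6-3 shRNA 1 was at 29.2 CPM against 27.9 CPM in its control. The estimate was -0.66 (SE 0.26, limma adjusted p = 0.225), and -0.33 without the sets that differ in identity. Atp5f1 (subunit b) and Atp5h (subunit d), both of the peripheral stalk, had estimates of -0.34 and -0.57, and Atp5j2 (subunit f) -0.39. Without those sets they were at -0.41, -0.36 and -0.18. Atp5b, by contrast, was at 891 to 1961 CPM in controls (median 1481) and 1046 to 2171 CPM in knockdowns (median 1709), with an estimate of 0.17 (SE 0.23).

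Promoters of members named in these comparisons were searched for sequence letters known from nuclear mitochondrial genes, and 7 are shown, 4 with such letters and 3 without. RefSeq windows of 300 bases (250 before to 50 after the start of the gene, build GRCm38.p6) were at hand for 66 of the 81 tested members. The windows are those of Ndufa6, chr15:82354242-82354541 (minus strand), Uqcrh, chr4:116075021-116075320 (minus strand), Cox8a, chr19:7217567-7217866 (minus strand), Atp5k, chr5:108434350-108434649 (minus strand), Ndufb3, chr1:58586147-58586446 (plus strand), Ndufv3, chr17:31519865-31520164 (plus strand), and Sdha, chr13:74350191-74350490 (minus strand). Capitals mark NRF1 (GCGCATGC), ETS (CCGGAAG) and estrogen-related receptor (AAGGTCA) letters on either strand; in the Atp5k window NRF1 letters on the 2 strands overlap.
Ndufa6: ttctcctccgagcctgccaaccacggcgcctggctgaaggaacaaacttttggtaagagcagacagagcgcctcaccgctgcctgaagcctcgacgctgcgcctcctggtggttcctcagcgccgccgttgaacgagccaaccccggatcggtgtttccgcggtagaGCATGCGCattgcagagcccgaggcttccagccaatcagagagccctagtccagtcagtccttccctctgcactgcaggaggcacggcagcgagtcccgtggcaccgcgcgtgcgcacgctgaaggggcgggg
Uqcrh: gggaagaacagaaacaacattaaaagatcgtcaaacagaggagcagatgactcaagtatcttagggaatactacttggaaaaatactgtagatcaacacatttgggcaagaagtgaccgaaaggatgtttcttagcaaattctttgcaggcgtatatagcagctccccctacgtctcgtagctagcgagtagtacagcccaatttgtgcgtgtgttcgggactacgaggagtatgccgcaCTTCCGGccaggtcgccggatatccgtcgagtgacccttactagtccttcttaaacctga
Cox8a: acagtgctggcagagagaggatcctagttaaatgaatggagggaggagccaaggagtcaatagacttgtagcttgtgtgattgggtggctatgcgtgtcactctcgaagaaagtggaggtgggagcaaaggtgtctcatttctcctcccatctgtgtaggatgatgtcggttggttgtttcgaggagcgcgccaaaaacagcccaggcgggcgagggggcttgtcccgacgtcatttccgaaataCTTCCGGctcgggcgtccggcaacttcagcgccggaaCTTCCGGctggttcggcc
Atp5k: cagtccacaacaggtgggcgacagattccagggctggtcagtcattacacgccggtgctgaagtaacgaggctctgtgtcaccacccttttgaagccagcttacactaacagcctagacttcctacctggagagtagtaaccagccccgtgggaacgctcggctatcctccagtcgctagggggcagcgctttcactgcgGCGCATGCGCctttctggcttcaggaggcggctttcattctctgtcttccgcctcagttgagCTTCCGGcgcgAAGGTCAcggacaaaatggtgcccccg
Ndufb3: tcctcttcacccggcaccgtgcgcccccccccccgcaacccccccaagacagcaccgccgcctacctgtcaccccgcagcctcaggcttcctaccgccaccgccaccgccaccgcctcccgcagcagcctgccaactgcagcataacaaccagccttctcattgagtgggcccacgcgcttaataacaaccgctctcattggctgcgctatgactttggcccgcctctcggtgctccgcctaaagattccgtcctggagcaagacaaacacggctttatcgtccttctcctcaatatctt
Ndufv3: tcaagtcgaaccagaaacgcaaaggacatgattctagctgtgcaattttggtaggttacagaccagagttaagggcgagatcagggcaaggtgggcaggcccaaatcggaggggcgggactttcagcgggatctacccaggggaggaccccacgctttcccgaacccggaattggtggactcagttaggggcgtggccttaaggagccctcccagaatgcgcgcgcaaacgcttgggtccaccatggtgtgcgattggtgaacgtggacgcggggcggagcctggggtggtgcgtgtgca
Sdha: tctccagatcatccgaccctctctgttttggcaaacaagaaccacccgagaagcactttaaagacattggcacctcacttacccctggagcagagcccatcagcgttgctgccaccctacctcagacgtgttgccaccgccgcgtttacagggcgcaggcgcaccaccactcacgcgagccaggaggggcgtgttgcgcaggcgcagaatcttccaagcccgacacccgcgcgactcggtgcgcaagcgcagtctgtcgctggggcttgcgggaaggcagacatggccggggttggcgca

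Over both strands and any window of a gene, 9 of 66 members (13.6%) had the NRF1 letters, against 6.00% of the 9057 tested genes with a window. ETS letters were found for 24.2% of members against 19.5%, YY1 letters (AAGATGGC) for 13.6% against 5.08%, and the estrogen-related receptor letters for 10.6% against 3.74%. The Ndufa6 window holds NRF1 letters, the Uqcrh and Cox8a windows ETS letters, and the Atp5k window NRF1, ETS and estrogen-related receptor letters. The windows of Ndufb3, which had the smallest p for the lung minus liver difference, of Ndufv3, which was lower in 8 of 8 sets, and of Sdha hold none of these letters, and neither does that of Uqcr10, which is not printed. Members with lower estimates were thus found both with and without the letters, and no match says only that they are not in this stretch. These matches describe the sequences, and binding was not measured.

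The hairpins were taken apart in the same fit, and they share an NT control only in G45-2 and 6-3. Lines 42-3 and 42-2 had each hairpin in a separate set with its own control, and 6-2 and 13-2 had shRNA 1 only. Hairpin is thus partly confounded with set and line. With shRNA 1 (6 libraries), 0 members passed (0% of all genes did), 72 of 81 were lower with a median of -0.34, and 15 were lower at an unadjusted p under 0.05, beside 8.8% of all genes. With shRNA 2 (4 libraries), 0 members passed (0% of all genes), 73 of 81 were lower with a median of -0.28, and 4 were lower at an unadjusted p under 0.05, beside 4.3% of all genes. By complex, the medians for shRNA 1 were -0.37, -0.17, -0.32, -0.27 and -0.33 from I to V, and for shRNA 2 -0.31, -0.13, -0.46, -0.29 and -0.25. Without the sets that differ in identity, 60 of 80 members were lower with shRNA 1 (median -0.16, 0 at an unadjusted p under 0.05) and 65 of 80 with shRNA 2 (median -0.17, 3 at an unadjusted p under 0.05). The shRNA 1 libraries in that fit are those of G45-2 and 6-3, which kept 54.5% and 75.4% of their Gstt1. Gstt1 itself was at -0.11 there with shRNA 1 and at -2.62 with shRNA 2. The shRNA 1 values without those sets thus come with little silencing.

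Ndufa6 had the smallest p of complex I with each hairpin, at -1.05 (SE 0.29, limma adjusted p = 0.170) with shRNA 1 and -0.99 (SE 0.35, limma adjusted p = 0.715) with shRNA 2. Uqcrh was at -0.75 and -0.85, Cox8a at -0.52 and -0.65, and Sdhc at -0.57 and -0.44. In complex V the smallest p was that of Atp5f1 with shRNA 1, at -0.43 (-0.25 with shRNA 2), and of Atp5s with shRNA 2, at -0.68 (-0.64 with shRNA 1). Without the sets that differ in identity, the shRNA 1 estimates were -0.49 for Ndufa6, -0.12 for Cox8a, -0.15 for Sdhc and -0.03 for Atp5s, while Uqcrh was at -0.63 and Atp5f1 at -0.46. For shRNA 2 they were -0.69 for Ndufa6, -0.22 for Sdhc, -0.66 for Uqcrh, -0.47 for Cox8a and -0.62 for Atp5s.

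The difference between hairpins was tested directly. For shRNA 2 minus shRNA 1, 38 members were lower and 43 higher, the median was 0.01, 0 members passed (0% of all genes) and 0 reached an unadjusted p under 0.05, beside 0.495% of all genes. DESeq2 and edgeR also called 0 members. The smallest p in each complex belonged to Ndufb10 (0.29, SE 0.24), Sdha (-0.19, SE 0.25), Uqcrfs1 (-0.17, SE 0.23), Cox6a1 (-0.22, SE 0.31) and Atp5k (0.45, SE 0.52). The SE of each of these is close to or above the difference, so differences of that size could not be resolved. Within line 6-3, where both hairpins were used, shRNA 1 left 75.4% of the Gstt1 level and shRNA 2 left 0.982%, beside member medians of 0.07 and -0.22. In G45-2 the same pair of values was 54.5% with a median of -0.43 and 11.8% with a median of -0.34.

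The effect of knockdown was then compared between lung and liver lines. The test of the lung minus liver difference in the knockdown effect gave 0 members past the threshold, beside 24 of 12931 genes (0.186%). It was negative for 75 of 81 members with a median of -0.65, where all genes had a median of 0.02, and 26 members were below 0 at an unadjusted p under 0.05, beside 9.41% of all genes. Complex medians were -0.71 (I), -0.45 (II), -0.41 (III), -0.54 (IV) and -0.72 (V). Single sets moved these: without the first 42-2 set complex V was at -0.38 and complex IV at -0.31, without the second 42-3 set complex III was at -0.71, and without the first 42-3 set complex II was at -0.30. DESeq2 called 12 members and edgeR 0.

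Averaged over sets, the median member was at -0.78 in the 3 lung sets and -0.09 in the 5 liver sets. These sets come from 2 lung and 4 liver lines. Repeat sets of 42-3 and of 42-2 were counted separately here and in the test of the difference, although they are not separate lines. In 62 of 81 members (76.5%) the knockdown was lower in all 3 lung sets, beside 21.8% of all genes. In 22 of 81 members (27.2%) every lung set lay below every liver set, beside 6.02% of all genes. These 22 were 13 of complex I, 1 of complex II (Sdhc), 2 of complex III (Uqcrq and Uqcr10), 4 of complex IV (Cox5b, Cox6b1, Cox6c and Cox8a) and 2 of complex V (Atp5j2 and Atp5k). No member had every lung set above every liver set. All 3 lung sets are among those whose control and knockdown differ in identity transcripts, so no lung value can be given without that difference. Liver sets hold both kinds: those that differ, 13-2 and the first 42-2 set, had member medians of -0.37 and 0.44, and the libraries of those that do not had medians of -0.43 to 0.07. Site and the identity difference are thus confounded in the lung lines, and their parts were not separated.

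**Figure D2:**
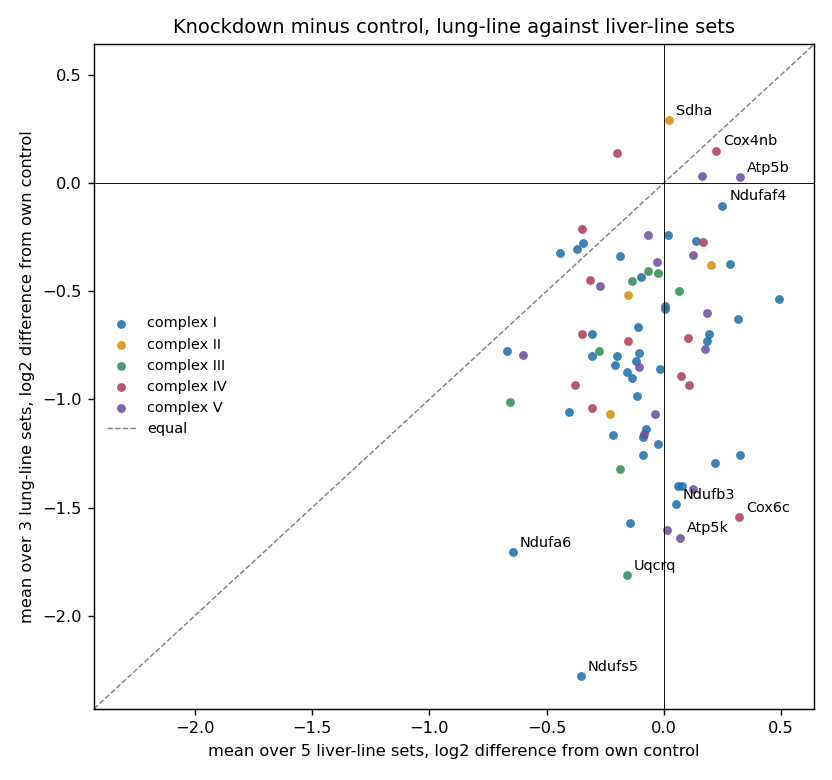
Each point is 1 tested member; the x axis is its mean log2(CPM + 1) difference from the own control over 5 liver-line sets, the y axis the mean over 3 lung-line sets, and the dashed line marks equal values. Most points lie below the line, with Ndufs5, Uqcrq and Ndufa6 lowest in the lung sets and Sdha highest.

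Ndufb3, an accessory subunit of the membrane arm of complex I, had the smallest p. In lung lines it went from 64.0 to 20.8 CPM in the first 42-3 set, from 94.2 to 37.9 in the second and from 80.8 to 26.3 in 6-2. In liver lines the controls were at 31.0 to 51.0 CPM and the knockdowns at 33.9 to 50.4 CPM. The lung minus liver difference was -1.52 (SE 0.28, limma adjusted p = 0.0684), and the adjusted p ran from 1.46e-05 to 0.255 over 19 alternatives. DESeq2 and the fit with no filter on low values placed it under 0.05. Lung controls thus lay above all liver libraries, and lung knockdowns lay below the liver knockdowns in the first 42-3 set and 6-2 and among them in the second 42-3 set.

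In complex III, Uqcrq was at 141 CPM in the control and 29.7 CPM in the knockdown of the first 42-3 set, at 217 and 63.5 CPM in the second, and at 246 and 88.2 CPM in 6-2. Its liver controls were at 106 to 208 CPM and its liver knockdowns at 71.9 to 168 CPM. The first 42-3 control lay within the range of the liver controls, and the 6-2 knockdown within that of the liver knockdowns. Its difference was -1.62 (SE 0.36, limma adjusted p = 0.0901). Atp5k, subunit e of ATP synthase, went from 45.9 to 5.52, 52.4 to 32.3 and 70.1 to 26.2 CPM in the lung sets, with a difference of -1.67 (SE 0.48, limma adjusted p = 0.136). Its liver knockdowns were at 33.1 to 82.8 CPM and its liver controls at 42.9 to 60.6 CPM. Cox6b1, on the intermembrane face of complex IV, had a difference of -0.95 and Sdhc one of -0.83. Sdha was at 0.21 (SE 0.33), without a difference beyond its error.

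**Figure D3:**
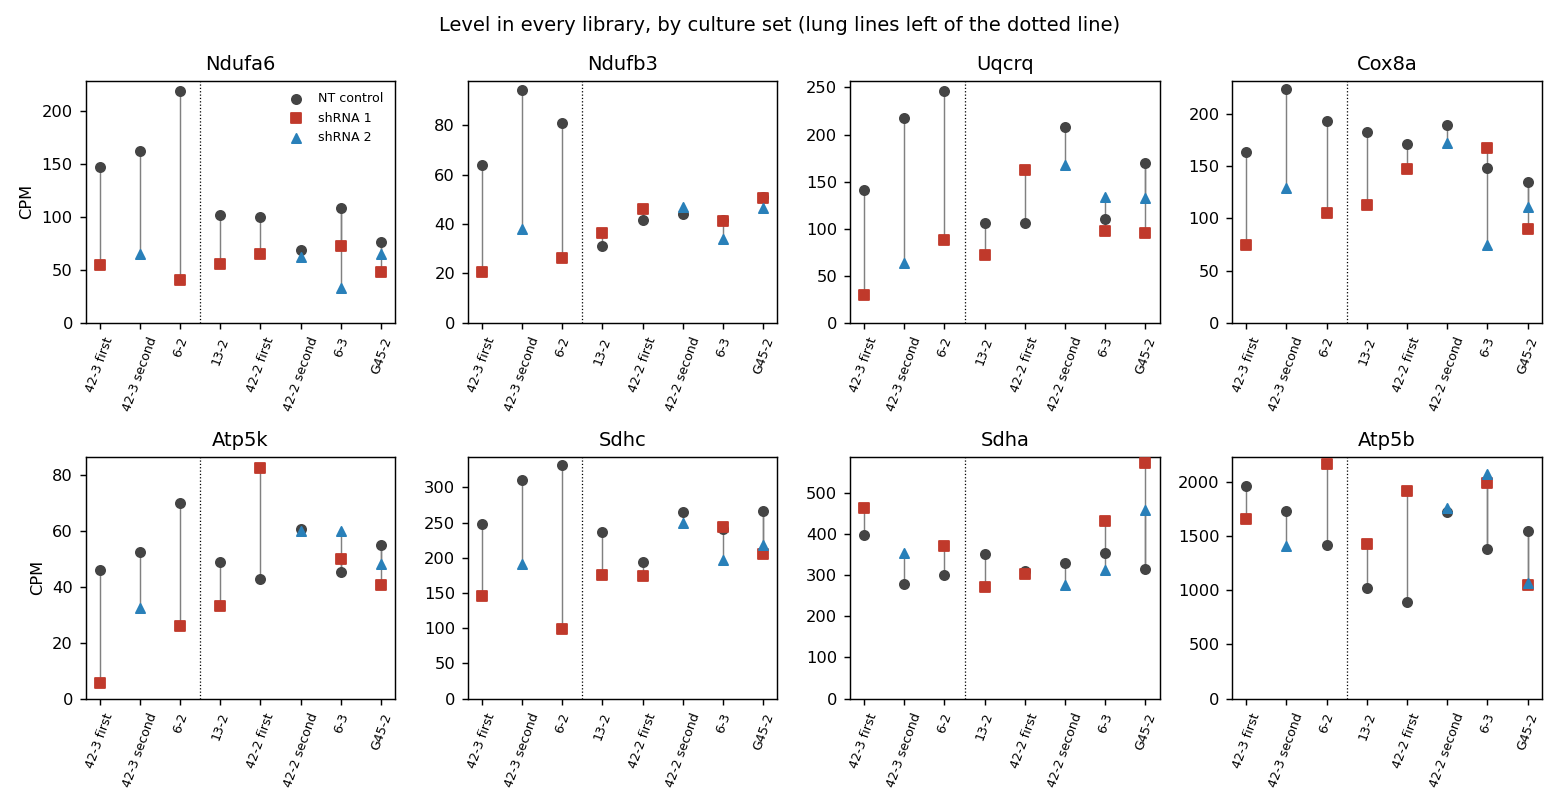
CPM of 8 members in each of the 18 libraries, by culture set, with circles for NT controls, squares for shRNA 1, triangles for shRNA 2 and grey lines joining a knockdown to its control. Ndufb3, Uqcrq, Atp5k and Sdhc are below their controls in all 3 lung sets left of the dotted line, whereas Sdha and Atp5b lie on both sides of their controls.

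Transcript length moved with the lung-set values. The 81 tested members had a median length of 875 nt and all genes with a length one of 2950 nt. In the lung sets, members shorter than 1000 nt had a median of -0.91 (45 of 46 lower) and longer members -0.48 (31 of 35 lower). All genes shorter than 1000 nt had a median of -0.72 there, with 84.6% of 706 lower, and longer genes 0.04, with 47.7% of 11574 lower. The median of short members was thus nearer to that of all short genes than the median of longer members was to that of all longer genes. In the liver sets the medians were -0.09 and -0.07 for members and -0.09 and -0.03 for all genes. Across all genes, Spearman's rho between length and the difference was 0.27, 0.16 and 0.37 in the 3 lung sets and -0.05 to 0.19 in the 5 liver sets; genes within a library are not independent, and the part of length in the result was not tested.

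**Figure D4:**
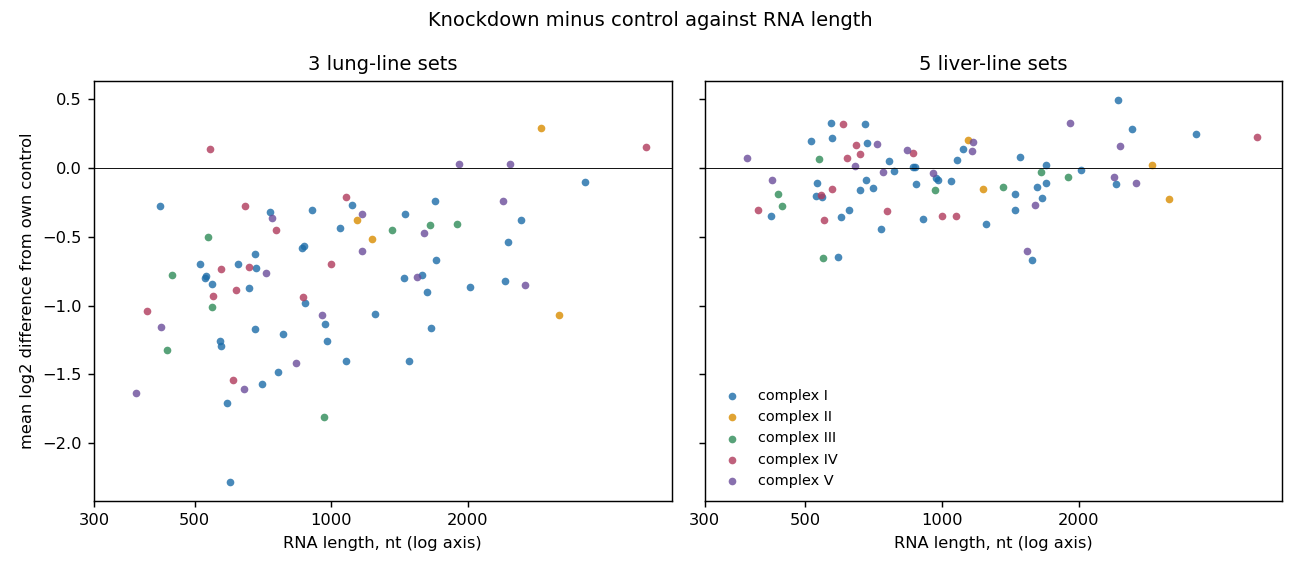
Mean log2(CPM + 1) difference from the own control against principal transcript length on a log axis, for the 81 tested members coloured by complex, in the 3 lung-line sets (left) and the 5 liver-line sets (right). In the lung sets the median is -0.91 for members shorter than 1000 nt and -0.48 for longer ones, and in the liver sets both medians are near 0.

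Cell type markers also moved, in lung and in liver sets. Summed epithelial markers were at 11755, 12672 and 14473 CPM in the lung controls and at 1444, 4486 and 1373 CPM in their knockdowns. In the liver sets they went from 2055 to 5593 CPM in 13-2, from 2002 to 1860 in the first 42-2 set and from 380 to 256 in the second. With shRNA 1 and shRNA 2 they went from 11997 to 7391 and 7640 CPM in 6-3, and from 5458 to 4384 and 4075 CPM in G45-2. For fibroblast markers, control and knockdown sums were 58.4 and 3877 CPM in the first 42-3 set, 13.9 and 357 CPM in the second, and 49.6 and 58.7 CPM in 6-2. In the liver sets they were 128 and 143 CPM in 13-2, 196 and 27.8 in the first 42-2 set, and 2917 and 6452 in the second. With shRNA 1 and shRNA 2 they went from 5.79 to 118 and 4.08 CPM in 6-3, and from 516 to 761 and 1327 CPM in G45-2. Between 1 and 2 of the 7 fibroblast genes were at 0 in the lung libraries, and 0 of the 5 epithelial genes were. Their part in the result was not tested.

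Between the NT controls of 2 lung and 4 liver lines, 0 members passed, beside 4 of 12931 genes (0.0309%). Higher estimates in lung lines were found for 60 of 81 members, with a median of 0.22 where all genes had -0.05, and 9 were higher at an unadjusted p under 0.05, beside 6.43% of all genes. The medians were 0.21, 0.09, 0.34, 0.22 and 0.20 for complexes I to V. Line 6-2 carried much of this: its members stood at a median of 0.28 above the mean of the controls, with 71 of 81 above, and without it 46 of 81 were higher with a median of 0.09 and 1 at an unadjusted p under 0.05. Controls of the same line also differed, with the second set above the first by a median of 0.19 in 42-3 (58 of 81 higher) and 0.33 in 42-2 (63 of 81). The median of 0.22 between sites thus lies between these differences of repeat sets of 1 line.

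**Figure D5:**
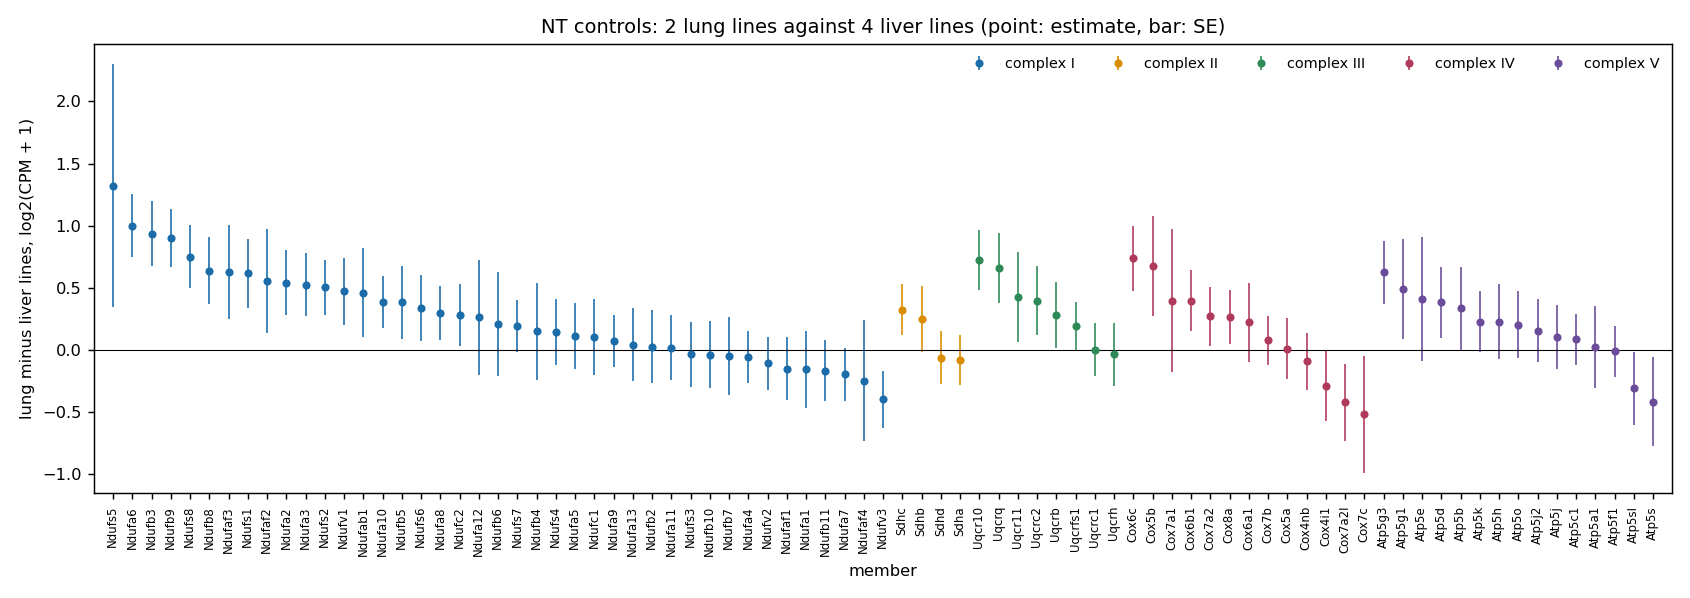
Lung minus liver estimate of log2(CPM + 1) in the NT controls for each of the 81 tested members, ordered within complexes, with the SE as bars; line means of 2 lung and 4 liver lines were compared. Estimates lie above 0 for 60 of 81 members, and many bars reach across 0.

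Ndufa6 was at 148 to 219 CPM in the 3 lung controls and 69.1 to 109 CPM in the 5 liver controls, without overlap. Its estimate was 1.00 (SE 0.25, limma adjusted p = 0.222). Ndufb9, another LYR-motif accessory subunit, was at 217 to 433 and 123 to 184 CPM, with an estimate of 0.90 (SE 0.24, limma adjusted p = 0.234). Ndufb3 was at 64.0 to 94.2 and 31.0 to 51.0 CPM, with an estimate of 0.94 (SE 0.26, limma adjusted p = 0.253), and DESeq2 gave it an adjusted p of 0.0398. Ndufa6, Ndufb9 and Ndufb3 were named for their small p in this comparison, so their separate ranges are no further evidence. The share of all genes with such ranges was not counted. Ndufs8, a core subunit that holds iron-sulfur clusters, had an estimate of 0.75.

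In complex III, Uqcr10, Uqcrq and Uqcrc2 had estimates of 0.72, 0.66 and 0.40. For complex IV they were 0.74 for Cox6c, 0.68 for Cox5b, 0.40 for Cox6b1 and -0.42 for the supercomplex factor Cox7a2l. Complex V had 0.62 for Atp5g3, 0.49 for Atp5g1 and 0.38 for the central stalk subunit Atp5d, and -0.42 for Atp5s. Complex II was close to 0, with 0.32 for Sdhc, 0.25 for Sdhb, -0.06 for Sdhd and -0.08 for Sdha. None of these passed, and leaving out 6-2 turned Sdhd and the median of complex V to the other side of 0.

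The spread among the 8 controls had a lower median for members than for all genes: the SD on the log2 scale was 0.331 over 79 members and 0.468 over 10606 genes, both with a mean of at least 5 CPM. It was lowest in complex II at 0.200 and highest in complex V at 0.363. Within complexes, the widest were Ndufs5 (SD 1.49), Sdhb (0.35), Uqcr10 (0.55), Cox6c (0.61) and Atp5e (0.58). Ndufs5 was at 0 to 13.6 CPM, a row that is uncertain because of its near-identical copies. Uqcrc1 was among the steadiest, at 324 to 441 CPM.

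Genes near this pathway were read in the same fit, by lists chosen with earlier results of these data known. Of 76 tested mitochondrial ribosomal proteins, which translate the mitochondrial subunits, 67 were lower in knockdowns with a median of -0.28, 15 of them at an unadjusted p under 0.05, and 0 passed, beside 53.0% of all genes that were lower and 10.1% that were lower at that p. Without the sets that differ in identity, 55 of 75 were lower with a median of -0.12, and 2 at an unadjusted p under 0.05. Mrpl38 had the smallest p there, at -0.73, followed by Mrpl16 at -0.58. Of 14 tricarboxylic acid cycle genes, 12 were lower (median -0.19), led by Suclg1, a subunit of succinyl-CoA ligase, at -0.50 and Idh2 at -0.41. Of 22 assembly factors outside the name rule, 18 were lower (median -0.14), with the copper-delivery factor Cox19 at -0.59 and Sdhaf2, which flavinates Sdha, at -0.37. Without those sets 10 of 14 cycle genes (median -0.11) and 13 of 22 assembly factors (median -0.03) were lower. Cyc1 and Atpif1 lead the 4 nuclear subunits or inhibitors that the rule does not match, at -0.45 and -0.78, and all 4 were lower (median -0.51), or 3 of 4 (median -0.33) without those sets. For the lung minus liver difference in the knockdown effect, 74 of 76 mitochondrial ribosomal proteins were negative (median -0.81, against -0.65 for the members). Of these, 0 passed, and 36 were negative at an unadjusted p under 0.05, beside 9.41% of all genes. Medians were -0.28 for cycle genes, -0.38 for assembly factors and -1.10 for the 4 unmatched genes. Between the NT controls, 66 of 76 mitochondrial ribosomal proteins were higher in lung lines (median 0.38, against 0.22 for the members).

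Electron carriers and coenzyme Q genes were mixed, with 8 of 14 lower (median -0.08), 9 of 14 (median -0.14) without those sets, Coq9 at -0.47 and the electron transfer flavoprotein subunit Etfb at -0.53. Regulators were mixed too, with 5 of 13 lower and a median of 0.00, or 9 of 13 and -0.05 without those sets. Gabpa, the DNA-binding subunit of an ETS factor that acts on these genes, was at 0.50 (SE 0.17, limma adjusted p = 0.176), and Esrra, an estrogen-related receptor, at -0.44 (SE 0.17, limma adjusted p = 0.226). None of the genes in these lists passed the test. The proliferation transcripts Mki67 and Top2a were at 1.60 and 0.93 in the same comparison, with limma adjusted p values of 0.0692 and 0.251. With Ccnb1, the 3 had a median of -1.60 for the lung minus liver difference and 0.92 between the NT controls. In both of these they lay on the same side as the members. Their sums went from 839 to 430 CPM in the first 42-3 set, from 742 to 702 in the second and from 620 to 1881 in 6-2. Their part in the members' values was not tested.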

How the data were processed

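RNA-seq of 18 libraries was deposited by the authors as 1 table of CPM, read counts scaled to a common library total. The submitters' processing notes name build mm9. The aligner, counter and annotation cannot be named, being not given in the sources used here. All values were whole multiples of 1 read within 0.01 (100% of values), so reads could be recovered. Culture sets were taken from line and library code. Labels do not say that libraries of a line come from separate cultures, so p-values cover only the spread among these libraries, which may be technical.

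log2(CPM + 1) values of 12931 genes, with at least 1 CPM in at least 4 libraries, were fitted in limma 3.58.1 (R 4.3.3), with trend, culture set as the block and a term per hairpin, two-sided, adjusted by Benjamini-Hochberg over all genes at 0.05. Fold differences on this scale understate changes of low genes. Site was tested on 6 line means, and the site difference in effect as an added term. Alternatives used edgeR 4.0.16 and DESeq2 1.42.0 on recovered reads, other pseudocounts, filters, scalings and blocks, and left out each set or line. Scripts were tested on simulated data.

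Pairing comes from the labels: a knockdown and its control share the cell line. Lengths are principal transcripts of GENCODE M21. Members are named by rank of p within each complex, for isoform pairs and for the largest spread in controls. Members, lists and rules were chosen with earlier results of these data known. In bulk RNA, fewer cells of a type and less RNA per cell cannot be told apart. 3 reads correspond to 0.117 to 0.357 CPM.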

Additional observations from a re-analysis of the deposited data

Results flagged for a closer look

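For members named above, the highest or lowest library of a group of 4 or 5 was compared with the rest by Dixon's ratio. It stood apart in 5 of 76 groups, and chance gives about 1 in 20 (5%). Atp5g3 was at 627 CPM in shRNA 1 of the first 42-2 set, against 295 to 323 CPM in the other liver shRNA 1 libraries. The control of that set had Cox6c at 46.1 CPM, against 96.4 to 120.2 CPM in the other liver controls. Uqcr10 was at 208 CPM in the second 42-2 control, with the others at 93.0 to 97.6 CPM. Cox7a1 was at 4.29 CPM in the 6-3 control, with the others at 0.385 to 0.840 CPM. Ndufa4, now counted with complex IV, was at 188 CPM in the 13-2 control, with the others at 223 to 238 CPM.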

How the results depend on the processing

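Of 1540 values recomputed under alternatives, 1516 kept their direction and side of the threshold or stayed within their limits. These limits were wide. A median was kept if it held its sign and moved by less than its SD over sets. That SD was 0.455 for all members, beside a knockdown median of -0.34. A named member was kept at any size, as Ndufa9 for knockdown at -0.45 and at -0.06 without the sets that differ in identity. The share kept thus says little about the size of effects. With 0 members past the threshold in the reported fits, the exceptions were as follows. For knockdown, 1 member passed with no replicate block (Ndufa6) and 3 with DESeq2; for shRNA 1, 1 with DESeq2. For the site difference in the knockdown effect, 1 passed with no filter on low values and 12 with DESeq2; for the controls by site, 1 with DESeq2. The replicate block by culture set changed no other call of a member. Leaving out 1 set or line gave 0 members in each comparison. Genes past the threshold for knockdown numbered 5, against 54 with no replicate block, 51 with the line as block, 1061 with DESeq2, 0 with edgeR and 0 with no filter. For the site difference in effect they numbered 24, against 2 with no replicate block, 9 with edgeR, 41 with quantile normalization and 1024 with DESeq2. For controls by site they numbered 4, against 18 with no filter, 14 with the filter at 5 CPM, 78 with a correlation within line, 1 with edgeR, 2 with a pseudocount of 0.5, and 580 with DESeq2. Without single sets, the difference of Sdhb for knockdown ran from -0.136 (without the first 42-2 set) to 0.0628 (without the second 42-3 set). The median of complex V for controls by site ran from -0.0249 (without 6-2) to 0.453 and the estimate of Sdhd from -0.215 to 0.0879 (without 6-2) over lines left out, and Sdhd was 0.0022 with a correlation within line. Uqcrfs1 for shRNA 2 minus shRNA 1 was 0.0015 with no replicate block. The cause of these shifts was not tested. Alternatives without the sets that differ at 1 CPM and within 1 library code were chosen after seeing the data; within 1 library code, 76 of 80 members were lower with a median of -0.37. Depth limits rows such as Cox7a1, at or near the level of 3 reads.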
